A study of Mus musculus with 9 samples.

Results

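Heat shock proteins and their DNAJ cochaperones, the core of the protein folding machinery, were followed in splenic type 2 dendritic cells of young and adult mice. The members are all genes whose symbol begins with Hspa, Hspb, Hspd, Hspe, Hsph, Hsp90 or Dnaj, without Hspbp1 and Hspbap1, which do not belong to these families. They number 72 of the 24054 genes counted, of which 45 are Dnaj genes and 13 are Hspa genes. An average count of at least 1 over the libraries, the filter applied to all genes, left 62 members among 14452 genes tested. The other 10 were Hspb2, Hspb3, Hspb7, Hspb8, Hspb9, Hspa12b, Dnajb8, Dnajc5b, Dnajc5g and Dnajc6, and Hspb3, Dnajb8 and Dnajc5g had no count in any library.

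The study compared dendritic cells by lineage history and by age with 9 mRNA sequencing libraries. All mice were C57BL/6 and homozygous for both a Clec9a-Cre allele and a Rosa-tdTomato reporter (Clec9a-Cre/Cre Rosa-tdTomato/tdTomato), so that cells that had once expressed Cre from the Clec9a promoter, which is active in conventional dendritic cell precursors, stayed TOMATO positive (TOM+). Live, single, autofluorescence-negative spleen cells positive for MHCII, CD11c and CD11b were sorted by TOMATO after collagenase digestion and CD11c bead enrichment. The groups were young TOM+ cDC2 and young TOM- DC2 at postnatal day 8, and adult TOM+ cDC2, with 3 libraries each. Each deposited name carries a number that is used here to name libraries, 81, 91 and 92 in both young groups and 91, 92 and 95 in adults. Adult library 91 came from mice of 9 weeks, and adult libraries 92 and 95 from mice of 8 weeks. Spleens of young mice were pooled, the labels state neither the sex behind a library nor what the number stands for, and adult TOM- cells were not analysed here. A p-value therefore measures the spread between these libraries, which the study calls biological replicates without saying whether each came from separate animals.

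Heat shock proteins bind unfolded stretches of other proteins and keep them from aggregating. HSP70 proteins do so in cycles of ATP hydrolysis that DNAJ proteins start and HSP110 proteins help to reset, whereas HSP90 finishes the folding of kinases and receptors, and small heat shock proteins hold clients without ATP. The cytosol, the endoplasmic reticulum (ER) and the mitochondrion have their own sets, some of which are made at all times while others, such as Hspa1a and Hspa1b, are switched on by the factor HSF1 within minutes of heat, proteotoxic stress or tissue handling.

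Each library had between 12783252 and 22809401 reads on genes. All 10 genes of the cDC2 marker list were detected, with a summed level of 17516 to 19004 TPM (a level scaled by transcript length and by the total of its library) in young libraries and 29874 to 32107 TPM in adults, most of it H2-Ab1. The list did not move as a whole with age. Itgax, Cd209a, Clec4a4 and H2-Ab1 were higher in every adult library than in any young one. Itgam, Sirpa and Clec10a were lower, and Irf4, Zbtb46 and Flt3 overlapped. Lists of other cells had lower sums. The cDC1 list summed to 176 to 206 TPM, most of it Batf3 (152 to 194), with Clec9a itself at 0.05 to 0.34. The pDC list summed to 104 to 164 TPM, most of it Bst2 (76.7 to 140). The B cell list summed to 41.1 to 80.7 TPM, most of it Cd79b (25.3 to 68.2). In young TOM- libraries Pax5 was at 0 and Ms4a1 at 6.02 to 10.4 TPM. The T cell list summed to 0.89 to 6.54 TPM and the neutrophil list to 0.25 to 22.6. The list of monocyte and macrophage genes, of which 7 of 8 were in the files, summed to 148 to 190 TPM in young TOM+ cDC2, 199 to 250 in young TOM- DC2 and 94.5 to 130 in adults. Hemoglobins and other erythroid genes reached 1176 TPM in young TOM- library 81 against 1.39 to 120 in the others, and the part of such admixture in the results was not tested. In sorted bulk RNA, fewer cells with a transcript and less transcript per cell cannot be told apart.

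The heat shock and DNAJ genes together made up 0.930% to 1.24% of all TPM in young TOM+ cDC2, 0.931% to 1.17% in young TOM- DC2 and 0.744% to 1.18% in adults. The level of 20 members averaged above 100 TPM over the 9 libraries, and that of 13 was under 1 TPM. Hspa8, the constitutive cytosolic HSP70, had the highest level of any member in all libraries, at 3269.7, 2528 and 2823 TPM in young TOM+ libraries 81, 91 and 92, 3076, 2596 and 2764 in the TOM- libraries of the same numbers, and 3531, 3109 and 2311 in adult libraries 91, 92 and 95. Hspa5, the HSP70 of the ER known as BiP, stood at 1254 ± 89.2 TPM (SD, n = 3) in young TOM+ cDC2, 1298 ± 95.2 in TOM- DC2 and 1137 ± 176 in adults. Hsp90ab1, the constitutive cytosolic HSP90, was at 690.3 ± 58.4, 691 ± 56.1 and 802 ± 295 TPM in the same order. Among the DNAJ genes Dnajc8, which acts in splicing, and Dnajb6, a suppressor of protein aggregation, had the highest levels, with means of 291 and 249 TPM in young TOM+ cDC2.

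Some of these genes are hard to count. Many have processed pseudogenes or near-identical copies, and the counts that were tested hold uniquely placed reads only, whereas the TPM also divide reads that fit several places. For 10 members the expected counts behind the TPM exceeded the tested counts by more than 2-fold: Dnajb6 by 12.2-fold, Hspa8 by 9.46-fold, Dnaja1 by 5.34-fold, Hsp90aa1 by 5.24-fold, Hspa1a by 3.31-fold, Hspe1 by 3.22-fold, Hspa1b by 3.11-fold, Hspd1 by 2.74-fold, Dnajc19 by 2.42-fold and Hspb1 by 2.27-fold. Of the 56 members with an average count of at least 50, 16.1% had such a gap, against 4.15% of the 10112 genes at that depth, and their tested differences are uncertain to that extent.

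Hspa1a and Hspa1b, the stress-inducible HSP70 genes, are neighbours on chromosome 17, and their promoters show how alike the copies are. Of the 250 bases before each annotated start in RefSeq (GRCm38.p6), 247 (98.8%) were identical, and the bases that differ are in capitals. The Hspa1a bases lie at chr17:34972157-34972406 and the Hspa1b bases at chr17:34959239-34959488, both on the minus strand and written 5′ to 3′.
Hspa1a: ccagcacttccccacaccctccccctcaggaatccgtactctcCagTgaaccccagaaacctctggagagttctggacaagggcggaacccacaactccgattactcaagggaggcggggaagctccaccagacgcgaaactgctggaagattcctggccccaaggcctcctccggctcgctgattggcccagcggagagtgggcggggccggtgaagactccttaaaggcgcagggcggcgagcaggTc
Hspa1b: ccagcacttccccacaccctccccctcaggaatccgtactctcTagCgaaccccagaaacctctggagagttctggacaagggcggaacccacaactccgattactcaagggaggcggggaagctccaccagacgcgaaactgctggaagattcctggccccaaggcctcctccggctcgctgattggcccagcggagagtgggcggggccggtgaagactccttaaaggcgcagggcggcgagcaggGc

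Promoter windows (250 bases before to 50 after a start) were found for 58 of the 72 members and were searched on both strands for the heat shock element, the HSF1 motif, in its strict form of 3 units, GAANNTTCNNGAA. It was present in 4 of the 58 members (6.90%), Hspd1, Hspe1, Dnajb6 and Hsph1, and in 0.662% of the 27025 genes with a window. The shorter form of 2 units, TTCNNGAA, lies within the longer one. It was in 6 of 58 members (10.3%) and in 9.60% of all genes. The letters of neither form lie in the Hspa1a and Hspa1b windows. The other order of 2 units, GAANNTTC, was not searched, and the bases printed for both genes hold it as gaagattc. Imperfect units were not searched either, so that a window without a match may still hold a heat shock element. A match describes letters only. Hspd1 and Hspe1 encode the mitochondrial chaperonin HSP60 and its lid HSP10. At the Hspd1 start with a match, they start 216 bases apart in opposite directions and share the stretch, which holds 2 overlapping matches. Hspd1 has another annotated start, and the 250 bases before that start hold no match. The matches are shown in capitals in the Hspe1 promoter, chr1:55087898-55088147 on the plus strand.
Hspe1: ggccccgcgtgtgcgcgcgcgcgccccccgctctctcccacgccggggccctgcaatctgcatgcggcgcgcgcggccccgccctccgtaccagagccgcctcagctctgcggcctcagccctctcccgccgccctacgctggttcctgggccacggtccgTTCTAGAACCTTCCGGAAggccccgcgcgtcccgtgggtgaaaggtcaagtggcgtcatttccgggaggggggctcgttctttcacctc

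The ER stress element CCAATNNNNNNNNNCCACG, by which the unfolded protein response switches on ER chaperones, was present in 3 of 58 members (5.17%) and in 0.137% of all genes. The 3 were Hspa5, Hsp90b1 and Dnajc3, all residents of the ER. The match in Hspa5 begins 65 bases before the start, in capitals within chr2:34771840-34772089 on the plus strand.
Hspa5: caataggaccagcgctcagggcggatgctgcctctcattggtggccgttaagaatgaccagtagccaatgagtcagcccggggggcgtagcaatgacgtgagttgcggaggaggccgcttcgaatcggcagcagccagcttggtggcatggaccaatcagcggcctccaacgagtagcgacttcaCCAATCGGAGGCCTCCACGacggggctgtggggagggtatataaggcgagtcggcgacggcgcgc

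Among members averaging 50 counts or more, the inducible HSP70 genes had the widest spread between libraries of a group. Hspa1b was at 1753, 495 and 498 TPM in young TOM+ libraries 81, 91 and 92, 1461, 378 and 411 in young TOM- libraries 81, 91 and 92, and 1189, 355 and 194 in adult libraries 91, 92 and 95. Hspa1a was at 1485, 474 and 573 TPM, 1217, 365 and 422 TPM and 1169, 364 and 215 TPM in the same order. Both genes were thus high in the libraries numbered 81 of both young groups and in adult library 91, and low in the other 6 libraries, and the ranges of all groups overlapped. In young mice, Hspa1b averaged 1607 TPM in both libraries numbered 81 and 445 TPM in the other 4, a ratio of 3.61, and Hspa1a 1351 and 458 TPM, a ratio of 2.95. Adult library 91 exceeded the mean of the other adults 4.33-fold for Hspa1b and 4.04-fold for Hspa1a. The high number differed between ages: young libraries 91 lay with the low ones, and adult library 91 with the high ones.

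**Figure D1:**
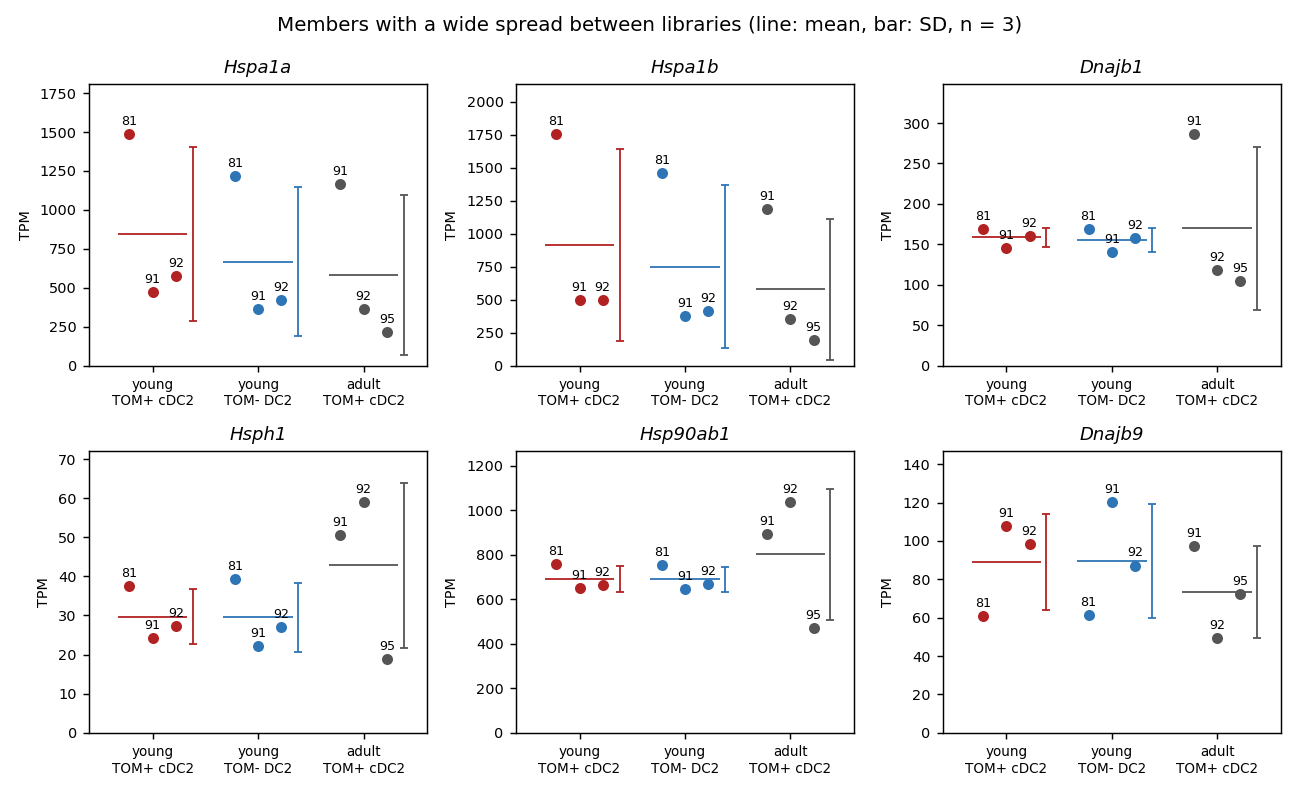
Level (TPM) of 6 members in each library, with the library number above each point, the group mean as a line and the SD over 3 libraries as a bar. Hspa1a and Hspa1b are at 1169 TPM or more in both young libraries 81 and in adult library 91 and at 573 TPM or less in the others, Dnajb1 is high in adult library 91 only, and Hsph1 and Hsp90ab1 are lowest in adult library 95.

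By the pooled within-group SD of log2 CPM (counts scaled to library size), Hspa1b at 1.12 and Hspa1a at 0.99 ranked 12 and 17 among 10112 genes. They were followed among the members by Hsph1 (0.61), Dnajb9 (0.53), Dnajc22 (0.52) and Dnajb1 (0.48). Over the family the spread was like that of other genes, with a median SD of 0.150 over its 56 members and 0.149 over all 10112 genes. Dnajc7, Dnajc8 and Hspa4, the steadiest members, had SDs of 0.041 to 0.051.

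**Figure D2:**
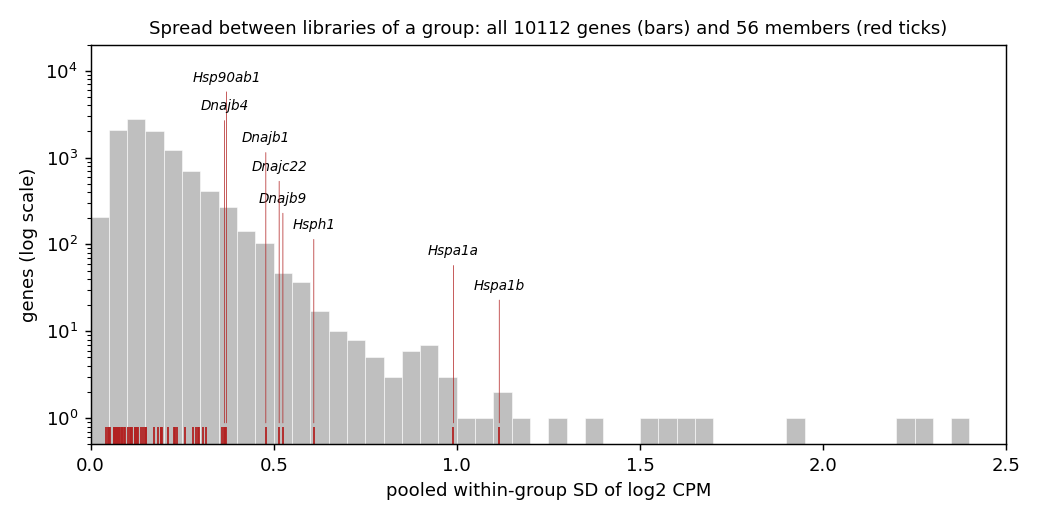
Pooled within-group SD of log2 CPM for 10112 genes averaging 50 counts or more (grey bars, number of genes on a log scale) and for the 56 members at that depth (red ticks). Most members lie with the bulk of genes, and Hspa1a (0.99) and Hspa1b (1.12) stand among the few genes near and above 1.

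Each library was then set against the other 2 of its group, and members more than 2-fold apart were counted. In young TOM+ library 81 these were Hspa1b and Hspa1a, 2 of 56 members against 0.9% of all genes, and in young TOM- library 81 the same pair, against 0.771% of all genes. In adult library 91 they were Hspa1b, Hspa1a and Dnajb1 (0.583% of all genes), all higher, and in adult library 95 they were Hspa1b, Hsph1, Hspa1a and Hsp90ab1 (0.831% of all genes), all lower. Young TOM+ library 91 had 1, Dnajc22, which was lower (0.287% of all genes). No member was 2-fold apart in young TOM+ library 92, young TOM- libraries 91 and 92 or adult library 92, where the shares of all genes were 0.376%, 0.188%, 0.336% and 0.593%.

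Dnajb1, the stress-inducible HSP40 that partners Hspa1a, varied less than it in young mice. Its level was 169, 146 and 161 TPM in young TOM+ libraries 81, 91 and 92, 169, 140.3 and 157 in the TOM- libraries and 286, 118 and 105 in adult libraries 91, 92 and 95. The young libraries lay close together, and the adult ones on both sides of them, with library 91 far above. Hsph1, the inducible HSP110, was at 37.5, 24.1 and 27.4 TPM in the young TOM+, 39.2, 22.2 and 27.1 in the young TOM- and 50.5, 59.1 and 18.9 in the adult libraries. Hsp90ab1 was at 757, 649 and 664 TPM in the young TOM+, 754, 648 and 670.0 in the young TOM- and 895, 1039 and 471 in the adult libraries. Both were high in adult libraries 91 and 92 and low in 95, with all young libraries in between, and in young mice both were highest in the libraries numbered 81.

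Dnajb9, an ER cochaperone of Hspa5 that the unfolded protein response raises, varied in another order. It was at 60.9, 108 and 98.7 TPM in young TOM+ libraries 81, 91 and 92, 61.2, 120.5 and 87.2 in TOM- libraries and 97.6, 49.6 and 72.6 in adult libraries 91, 92 and 95. The libraries numbered 81, which were high for Hspa1a, were the lowest of their groups for Dnajb9. Hspa5 itself was at 1160.3, 1265 and 1338 TPM in young TOM+, 1195, 1382 and 1318 in young TOM- and 1338, 1011 and 1062 in adult libraries. By a smaller margin than Dnajb9, it too was lowest in young libraries 81 and highest in adult library 91. It was among the 18 members that passed for the number in the edgeR model given below. The small heat shock protein Hspb1, with an average count of only 6.11 per library, was highest in adult library 91 (6.92 TPM) and young TOM+ library 81 (3.17 TPM), at counts too low for a comparison.

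**Figure D3:**
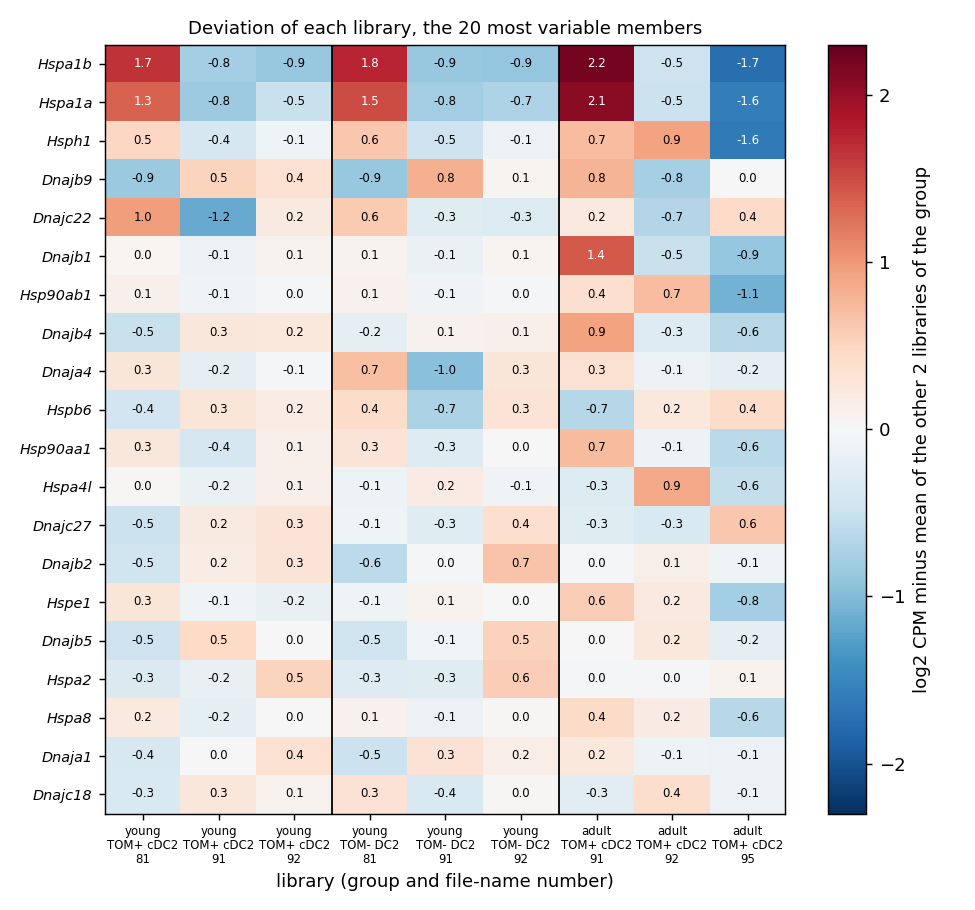
Log2 CPM of each library minus the mean of the other 2 libraries of its group, for the 20 members with the largest pooled SD (rows) in 9 libraries (columns, black lines between groups). Red is higher and blue lower, and the strongest red cells are Hspa1b and Hspa1a in both young libraries 81 (1.35 to 1.76) and in adult library 91 (2.20 and 2.08), with Dnajb1 in adult library 91 (1.41).

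When the library number was added to the groups in edgeR's quasi-likelihood model, 18 of 62 members passed a padj under 0.05 for the number, against 17.5% of all genes tested. The smallest p-values belonged to Hsph1 (padj 1.9e-07), Hsp90ab1 (4e-06), Hspa1b (0.00012), Dnajb9 (0.00046), Hspa1a (0.0007) and Hspa8 (0.0018). Number 81 occurs only in young and 95 only in adult libraries, so that for those the number is set by libraries of 1 age. Number 95 is moreover 1 library, so that the number and that library cannot be told apart. It lay 1.63 log2 CPM below the other adults for Hsph1 and 1.09 below for Hsp90ab1. Young libraries deviated by -0.48 to 0.61 for Hsph1 and by -0.09 to 0.13 for Hsp90ab1. Immediate early genes, such as Fos and Egr1, which cells induce within minutes of a signal or of handling, did not follow Hspa1a at both ages in their sum. Their 27 genes summed to 17418 and 17263 TPM in young libraries 81, below the 23171 to 24585 of the other young libraries, and to 37163 in adult library 91, above the 30839 and 28019 of the other adults. Genes with high levels weigh most in this sum, and single genes differed. Fos went with the sum, at 1624 and 1541 TPM in young libraries 81 and 2408 to 2479 in the other young ones. Jun was at 427 and 411 TPM in young libraries 81 and 312 to 402 in the other young ones. In adult library 91 Jun was at 926 TPM, against 364 and 417 in the other adults. The part of handling in any of these patterns was not tested.

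Between young TOM+ cDC2 and young TOM- DC2, 0 of the 62 members passed a padj under 0.05 by edgeR's quasi-likelihood test, where 0.125% of all genes tested were higher and 1.47% lower in TOM+ cDC2, and 1.18% were called with a log2FC beyond 1 in either direction. At an unadjusted p under 0.05 there were 3 members, beside 1355 of the 14452 genes tested. DESeq2 called 1 member, Dnajb2, where it called 61 of all genes higher and 306 lower in TOM+ cDC2. The median log2FC was 0.03 over the members and 0.00 over all genes tested. The smallest padj belonged to Dnajb2, which hands ubiquitinated clients to the proteasome, at 4.20, 5.27 and 5.85 TPM in TOM+ and 6.89, 8.27 and 11.8 TPM in TOM- libraries 81, 91 and 92. All TOM+ libraries lay below all TOM- libraries (log2FC -0.74 ± 0.20 SE, edgeR padj 0.11).

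Young libraries of the same number deviated together, which allowed a paired comparison. With the number as a block in the fit of all 9 libraries, 2 members passed, both lower in TOM+ cDC2: Dnajb2 (log2FC -0.73, edgeR padj 0.00081) and Hspa2, an HSP70 best known from testis (log2FC -0.41, padj 0.032), while 6.57% of all genes passed. Hspa2 was at 10.6, 11.1 and 15.0 TPM in TOM+ and 15.1, 13.9 and 20.9 TPM in TOM- libraries, lower in TOM+ cDC2 at each number although the ranges overlapped. With the block in the 6 young libraries alone, a fit chosen after seeing the data, 11.8% of all genes and 6 members passed. These were Dnajb2 and Hspa2 again, and 4 members higher in TOM+ cDC2: Hspa1a (log2FC 0.37 ± 0.05 SE, edgeR padj 2.6e-06), Hspa1b (0.30 ± 0.04, padj 1.2e-05), Hspa4 (0.14 ± 0.04, padj 0.021) and Hsp90b1 (0.12 ± 0.04, padj 0.047). The TOM+ library exceeded the TOM- library of the same number in all 3 pairs for Hspa1a (log2 differences 0.27, 0.36 and 0.50) and Hspa1b (0.24, 0.35 and 0.32). These differences were small beside the gap between libraries 81 and the others, and erythroid RNA was high in young TOM- library 81.

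More members passed for age, as did more of all genes. Young TOM+ cDC2 against adult TOM+ cDC2 gave 10 of 62 members higher in young mice, where 21.0% of all genes tested were higher, and 13 lower, where 19.5% were lower, by edgeR's quasi-likelihood test. With a log2FC beyond 1 there were 6, all lower in young mice, and 12.8% of all genes passed. Young TOM- DC2 against adult TOM+ cDC2 gave 4 members higher (19.4% of all genes) and 11 lower (16.9% of all genes), and 5 members beyond a log2FC of 1 (11.3% of all genes), again all lower in young mice. The 10 fell to 6 without young TOM+ library 91, and the 5 to 3 without adult library 91. For those settings the share of all genes is not given. Both comparisons use the same 3 adult libraries and are therefore not independent, and in the second one age and TOMATO status differ together. The median log2FC, young over adult, was 0.03 over members and 0.05 over all genes in the first comparison, and -0.05 and 0.07 in the second. On the TPM scale with limma, where the median log2FC of the 10112 genes averaging 50 counts or more moved from 0.05 to 0.17 and from 0.03 to 0.18, the calls shifted to 15 members higher and 7 lower, and to 12 higher and 6 lower, so that small differences below depend on the scaling. The share of higher calls among all genes moved with it, from 51.9% to 67.4% and from 53.5% to 73.0%. Calls added as higher on that scale were Hspd1, Hspa14, Dnajc5, Dnajc19 and Hspb11 in young TOM+ cDC2. In young TOM- DC2 they were Hspd1, Hsp90b1, Dnajc15, Dnajc3, Dnajb11, Dnajc19, Hspb11 and Dnajc11.

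Cytosolic DNAJA and DNAJB proteins, the cochaperones that bring clients to HSP70, made up 4 of the 6 members beyond a log2FC of 1 in TOM+ cDC2 and 4 of the 5 in TOM- DC2. Of the 11 tested, 5 were lower in young mice in either comparison, where 19.5% and 16.9% of all genes were lower, and none was higher. Dnajb6, among the 5, was lost with expected counts and on the TPM scale. The median log2FC was -0.25 in TOM+ cDC2 and -0.31 in TOM- DC2. Dnajb2 was at 28.4, 29.9 and 29.0 TPM in adult libraries 91, 92 and 95, above every young library given before. Its log2FC was -2.52 ± 0.20 (SE; edgeR padj 1.8e-06) in young TOM+ cDC2 against adults and -1.77 ± 0.19 (padj 2.2e-05) in TOM- DC2, a 5.73-fold and a 3.42-fold lower count. Dnajb4 was at 9.39, 12.7 and 12.5 TPM in young TOM+, 12.3, 13.2 and 13.5 in young TOM- and 37.0, 21.1 and 18.8 in adult libraries. Every adult library lay above every young one, with adult library 91, also high for Hspa1a, far above the others. The log2FC of Dnajb4 was -1.29 ± 0.23 (edgeR padj 0.00091) in TOM+ cDC2 and -1.15 ± 0.23 (padj 0.0021) in TOM- DC2.

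Dnajb5 and Dnaja4, of the same class, showed the same order. Dnajb5 was at 7.70, 10.9 and 8.88 TPM in young TOM+, 7.90, 8.51 and 11.7 in young TOM- and 17.6, 19.8 and 16.8 in adult libraries (log2FC -1.10 ± 0.19, edgeR padj 0.00056, and -1.08 ± 0.19, padj 0.00075). Dnaja4 was low throughout, at 2.32, 1.72 and 1.83 TPM in young TOM+, 3.57, 1.53 and 2.85 in young TOM- and 5.72, 4.61 and 4.74 in adult libraries (log2FC -1.53 ± 0.25, edgeR padj 0.00042, and -1.09 ± 0.25, padj 0.0041). Neither gene's adult libraries overlapped with young ones. Dnajb6 was called lower in young mice from uniquely placed reads (log2FC -0.53 ± 0.10, edgeR padj 0.0014), but its TPM were 249 ± 18.4 in young TOM+ cDC2 and 257 ± 13.8 in adults, and the call was lost with expected counts (log2FC -0.18, padj 0.13).

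The abundant cytosolic cochaperones did not pass. Dnaja1, the main farnesylated partner of Hspa8, was at 136 ± 21.9, 137 ± 20.1 and 113 ± 4.85 TPM in young TOM+, young TOM- and adult libraries (edgeR padj 0.6 and 0.7). Dnaja2 was at 122 ± 8.30, 129.8 ± 4.81 and 125 ± 1.97 TPM (padj 0.14 and 0.34). For Dnajb1 the outcome turned on adult library 91: its log2FC was -0.25 in TOM+ cDC2 (edgeR padj 0.53) with that library and 0.38 (padj 0.016) without it, and in TOM- DC2 it became 0.32 (padj 0.037).

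**Figure D4:**
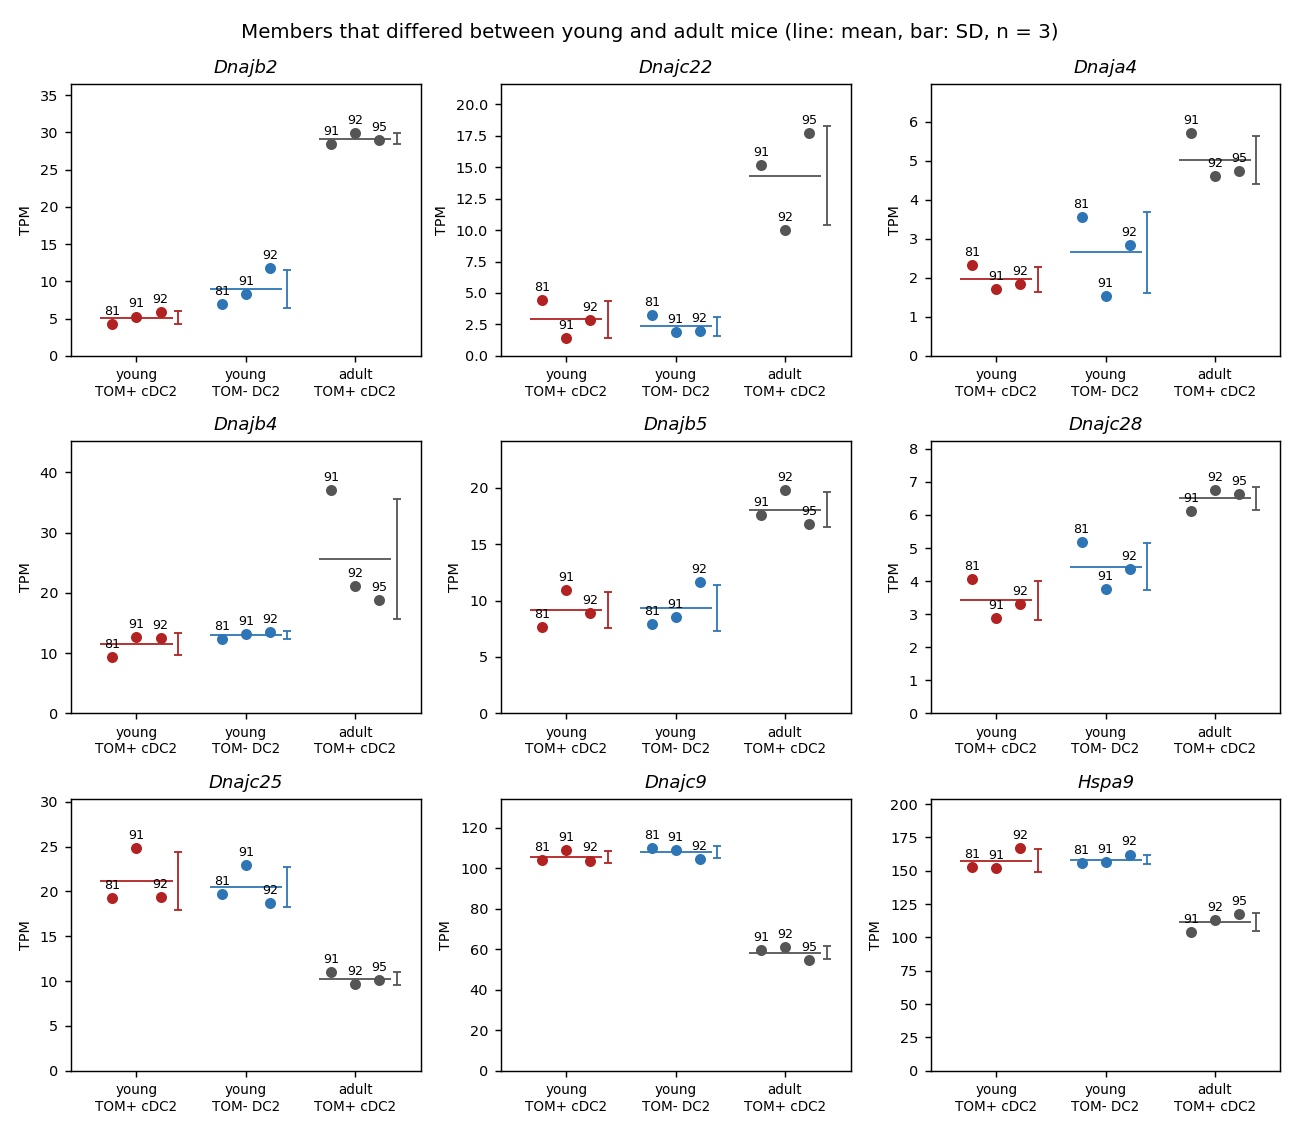
Level (TPM) of 9 members in each library, with the library number above each point, the group mean as a line and the SD over 3 libraries as a bar. Dnajb2, Dnajc22, Dnaja4, Dnajb4, Dnajb5 and Dnajc28 are higher in all adult libraries than in any young one, and Dnajc25, Dnajc9 and Hspa9 are lower.

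Among the DNAJC genes, which are named for a J domain and little else in common, the members moved both ways. Of the 13 tested outside the ER and mitochondrion, 2 were higher and 4 lower in young TOM+ cDC2, and the same counts held for TOM- DC2 (21.0% and 19.5% of all genes in the first, 19.4% and 16.9% in the second). Dnajc22, a membrane J-protein, was at 4.40, 1.41 and 2.88 TPM in young TOM+, 3.22, 1.86 and 1.95 in young TOM- and 15.2, 10.02 and 17.8 in adult libraries. No young library came near the lowest adult one, and the log2FC was -2.42 ± 0.32 (edgeR padj 8.4e-05) in TOM+ cDC2 and -2.76 ± 0.33 (padj 5.1e-05) in TOM- DC2. Dnajc9, a chaperone of histones H3 and H4 that is made in dividing cells, went the other way, at 104, 109 and 104 TPM in young TOM+, 110.2, 109 and 105 in young TOM- and 59.5, 60.9 and 54.8 in adult libraries. All young libraries were far above all adult ones (log2FC 0.69 ± 0.08, edgeR padj 3.8e-05, and 0.70 ± 0.08, padj 4.6e-05). Dnajc2, which sits on the ribosome and receives nascent chains, was at 89.4 ± 5.35 TPM in young TOM+ cDC2, 91.7 ± 10.1 in TOM- DC2 and 63.9 ± 1.77 in adults (log2FC 0.35 ± 0.08, edgeR padj 0.0046, and 0.36 ± 0.08, padj 0.0046). Dnajc7, which links HSP70 and HSP90, was lower in young mice, with a log2FC of -0.28 ± 0.07 (edgeR padj 0.008) and -0.27 ± 0.07 (padj 0.013), a difference that was lost on the TPM scale. Dnajc5, the cysteine string protein of secretory vesicles, was at 77.2 ± 6.43 TPM in young TOM+ cDC2 and 63.5 ± 3.70 in adults. It did not pass by edgeR (padj 0.14), though it did on the TPM scale with limma.

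In the mitochondrion, Hspa9, the HSP70 that pulls proteins through the inner membrane, was higher in young mice. It was at 153, 152 and 167 TPM in young TOM+, 156, 157 and 162 in young TOM- and 104, 113 and 117 in adult libraries, with no overlap between ages. Its log2FC was 0.37 ± 0.09 (edgeR padj 0.0055) in TOM+ cDC2 and 0.34 ± 0.09 (padj 0.0091) in TOM- DC2, the latter at a padj of 0.051 without young TOM- library 92. The chaperonin genes did not pass on uniquely placed reads: Hspd1 was at 174, 169 and 162 TPM in young TOM+ and 131, 141 and 100.5 in adult libraries (edgeR padj 0.053), and Hspe1 at 155, 165 and 153 and 145, 138 and 91.3 (padj 0.6). For both, adult library 95 was the lowest of all. On the TPM scale with limma, Hspd1 passed in both age comparisons (padj 0.014 and 0.028) and Hspe1 in neither. Of the 7 mitochondrial DNAJ genes tested, 2 were higher (21.0% of all genes) and 1 lower (19.5%) in young TOM+ cDC2, and 1 was lower in TOM- DC2 (16.9%). Dnajc15, an inner membrane protein that restrains respiration, was at 140.0 ± 7.05 TPM in young TOM+ cDC2, 131 ± 12.4 in TOM- DC2 and 96.8 ± 2.38 in adults (log2FC 0.42 ± 0.11, edgeR padj 0.0072, and 0.29 ± 0.11, padj 0.051). Dnajc28 was at 4.05, 2.89 and 3.31 TPM in young TOM+, 5.17, 3.77 and 4.37 in young TOM- and 6.11, 6.75 and 6.64 in adult libraries, and lower in young mice without overlap (log2FC -1.05 ± 0.15, edgeR padj 0.00013, and -0.69 ± 0.14, padj 0.0028). Dnaja3, the main J-protein of the matrix, did not pass, at 35.5 ± 2.40, 33.9 ± 1.67 and 30.8 ± 0.979 TPM (padj 0.52 and 0.73).

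In the ER, Hsp90b1, the HSP90 of that compartment, was at 412, 429 and 372 TPM in young TOM+, 392, 407 and 349 in young TOM- and 278, 323 and 218 in adult libraries. It passed in TOM+ cDC2 (log2FC 0.43 ± 0.14, edgeR padj 0.025), though no longer without young TOM+ library 91 or either of adult libraries 91 and 95, and not in TOM- DC2 (padj 0.091). On the TPM scale with limma, it passed in TOM- DC2 as well (log2FC 0.50, padj 0.015). Hspa5 did not pass (log2FC 0.01 ± 0.13 and 0.04 ± 0.13, edgeR padj 0.94 and 0.85), nor did Hspa13 (padj 0.12 and 0.36). Of the 10 ER DNAJ genes tested, 2 were higher (21.0% of all genes) and 2 lower (19.5%) in young TOM+ cDC2, and 1 each in TOM- DC2 (19.4% and 16.9%). Dnajc25 had the largest rise, at 19.2, 24.9 and 19.4 TPM in young TOM+, 19.7, 22.9 and 18.7 in young TOM- and 11.02, 9.63 and 10.1 in adult libraries. The lowest young library was well above the highest adult one (log2FC 0.92 ± 0.15, edgeR padj 0.00037, and 0.84 ± 0.15, padj 0.00084). Dnajb11, an abundant cofactor of Hspa5, was at 156 ± 6.71, 149.7 ± 3.96 and 117 ± 6.33 TPM. By edgeR it passed in TOM+ cDC2 only (log2FC 0.29 ± 0.08, padj 0.014, and 0.20 ± 0.08, padj 0.076). That call was lost without young TOM+ library 91 or adult library 95. On the TPM scale with limma, Dnajb11 passed in TOM- DC2 too (log2FC 0.36, padj 0.0015). The young groups themselves did not differ past the threshold for it (padj 0.87). Dnajc3 and Dnajc10, which act with Hspa5 in translation control and disulfide reduction, did not pass by edgeR (padj 0.7 and 0.38 in TOM+ cDC2). On the TPM scale with limma, Dnajc3 passed in TOM- DC2 (padj 0.016). Dnajc1, an ER J-protein at the ribosome, was called lower in young TOM+ cDC2 (log2FC -0.38 ± 0.10, edgeR padj 0.0094), and Dnajb12, which works in ER-associated degradation, in both comparisons (log2FC -0.32 and -0.40, padj 0.031 and 0.012). On the TPM scale with limma neither passed (padj 0.17 and 0.2).

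**Figure D5:**
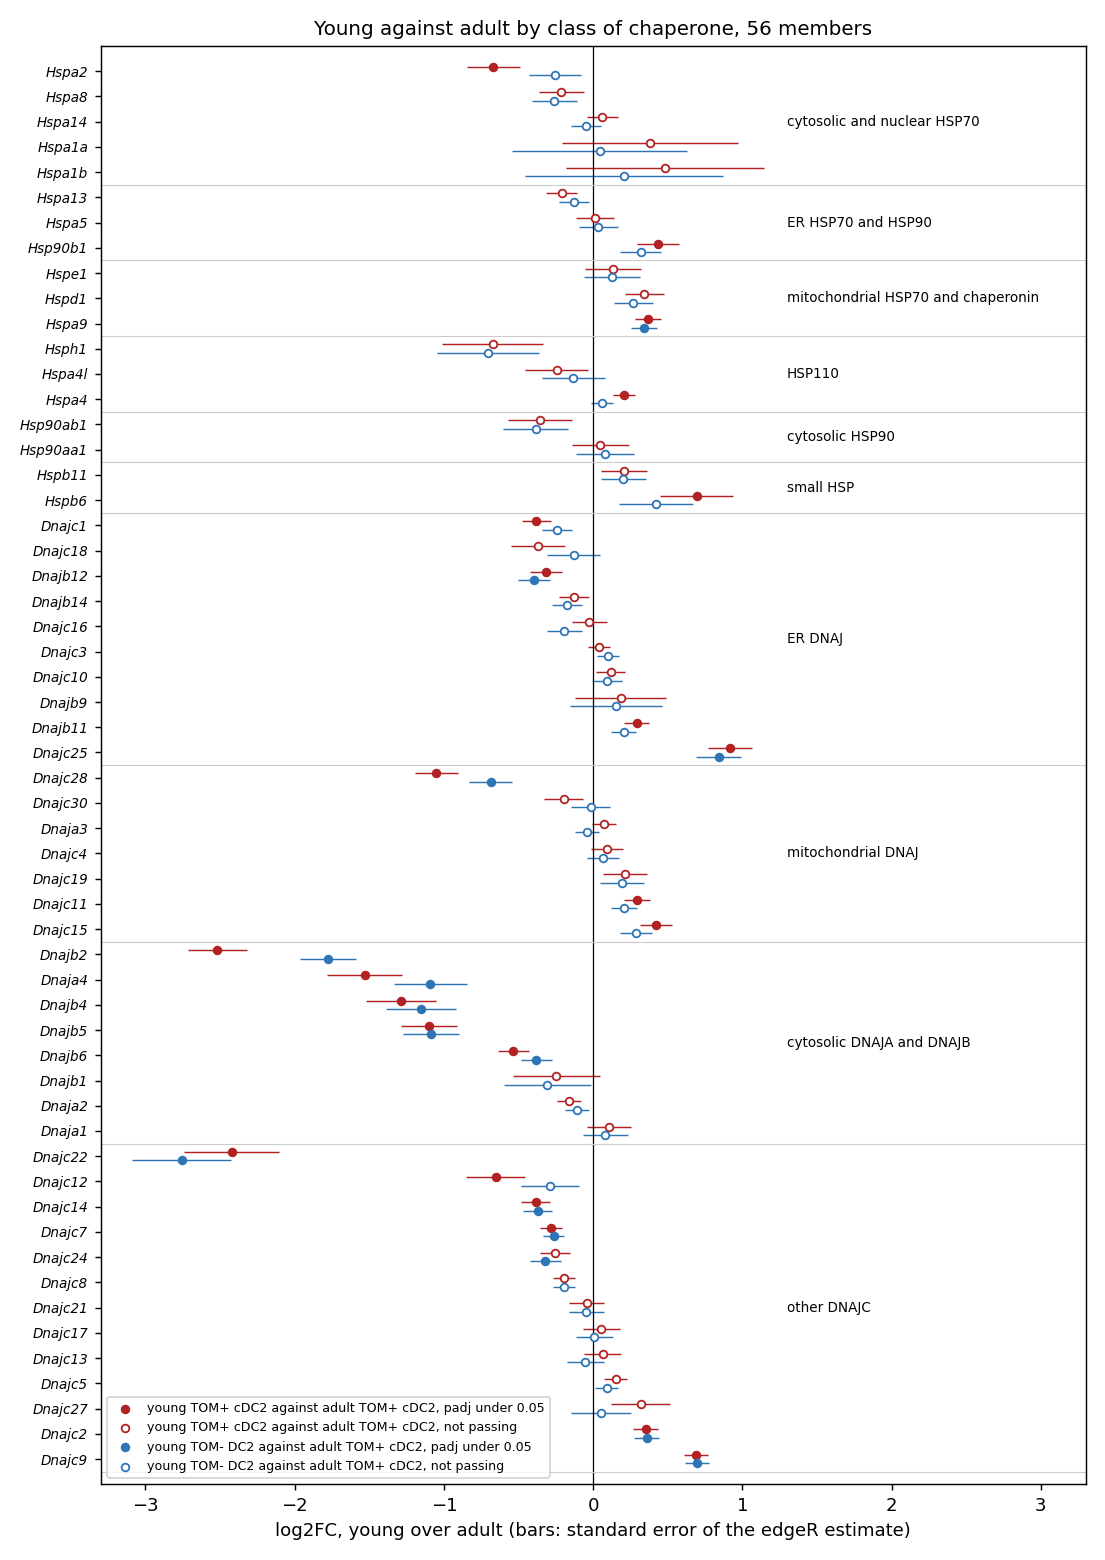
Log2FC of young over adult for 56 members with an average count of at least 50, grouped by class, with the standard error as a bar. Red is TOM+ cDC2 and blue TOM- DC2, filled points have an edgeR padj under 0.05, and the points farthest from 0 are Dnajb2 and Dnajc22 on the side of adults and Dnajc25 on the side of young mice.

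Most HSP70, HSP90 and HSP110 genes of the cytosol did not pass for age. Hspa8 (edgeR padj 0.28 in TOM+ cDC2 and 0.2 in TOM- DC2), Hsp90aa1 (0.86 and 0.78), Hsp90ab1 (0.21 and 0.18) and Hsph1 (0.14 and 0.13) did not pass. In adult library 95 the TPM of Hsph1, Hsp90ab1 and Hspa8 lay below every young library. Without that library, Hsph1 (log2FC -1.05, edgeR padj 0.0023), Hsp90ab1 (-0.63, padj 0.00033) and Hspa8 (-0.40, padj 0.012) were lower in young TOM+ cDC2. So they were in TOM- DC2 (-1.08, -0.67 and -0.44, edgeR padj 0.0023, 0.00029 and 0.0073). Library 95 is named here for its low values of these genes, so that the padj without it cannot be read as a test of age. Hspa1a had a log2FC of 0.38 ± 0.59 in TOM+ cDC2 and 0.04 ± 0.59 in TOM- DC2, and Hspa1b of 0.48 ± 0.66 and 0.21 ± 0.66, so that the standard error exceeded the difference and no edgeR padj was under 0.6. Both young libraries 81 and adult library 91 were then left out, a choice made after seeing the data, as those highest for Hspa1a and Hspa1b. In what remained, Hspa1a (log2FC 0.81, edgeR padj 0.0053) and Hspa1b (0.80, padj 0.0081) were higher in young TOM+ cDC2. Because the values of these genes chose the libraries, those padj cannot be read as a test of age. Hspa4, an HSP110, passed in TOM+ cDC2 by a log2FC of 0.20 ± 0.07 (edgeR padj 0.045), a call that 15 of 20 other settings lost. Hspa2 was lower in young TOM+ cDC2 than in adults, where it stood at 17.3, 17.5 and 19.1 TPM (log2FC -0.67 ± 0.18, edgeR padj 0.0099), and did not pass in TOM- DC2 (padj 0.28). Hspa14, which joins nascent chains at the ribosome, was at 89.8 ± 2.70 TPM in young TOM+ cDC2 and 77.0 ± 7.01 in adults (padj 0.66), Hspa4l had a padj of 0.39, and Hspa1l, a testis gene, was at 1.09 ± 0.135 and 1.18 ± 0.730 TPM (padj 0.79). Of the 8 small heat shock genes, only Hspb6 and Hspb11 averaged 50 counts or more. Hspb11, also known as a part of the transport machinery of cilia, did not pass (edgeR padj 0.3 and 0.32). It was at 21.7, 25.4 and 22.3 TPM in young TOM+, 24.0, 24.3 and 21.2 in young TOM- and 17.9, 19.0 and 17.4 in adult libraries. On the TPM scale with limma, Hspb11 passed in both comparisons and Hspa14 in TOM+ cDC2, both higher in young mice. Hspb6 was at 8.62, 11.2 and 10.4 TPM in young TOM+, 10.8, 5.85 and 9.90 in young TOM- and 4.0, 6.34 and 7.18 in adult libraries, and passed in TOM+ cDC2 (log2FC 0.69 ± 0.25, edgeR padj 0.04) but not in TOM- DC2 (padj 0.21). The call was lost in 7 of 20 other settings, among them without young TOM+ library 91 or 92 (padj 0.12 for either), without adult library 91 (0.14) or 92 (0.067), without young TOM- library 92 (0.056) and with expected counts (0.071).

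With the library number as a block, which leaves the age difference to libraries 91 and 92 and adult library 95 without weight, the counts for young TOM- DC2 against adults rose from 4 to 11 members higher in young mice, from 11 to 19 lower and from 5 to 8 beyond a log2FC of 1, and 45.3% of all genes passed. Hsp90ab1, Hsph1 and Hspa8 were among the added calls, all lower in young mice and added in TOM+ cDC2 as well, and adult libraries 91 and 92 were those with the high values. Hspa1a and Hspa1b were added on the same side, against the sign of their log2FC without the block. Deviations of young and adult libraries of the same number correlated at only -0.003 to 0.157, against 0.501 to 0.746 for the young pairs. Pairing by number across age therefore has little ground.

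Other folding genes were set beside the family, from lists chosen with earlier results of these data known and not printed in full here. Over all genes tested, 21.0% were higher and 19.5% lower in young TOM+ cDC2 than in adults, and 19.4% and 16.9% in TOM- DC2. Of 13 subunits tested of the cytosolic chaperonin TRiC and of prefoldin, which fold actin and tubulin, 7 were higher and none lower in young TOM+ cDC2 (median log2FC 0.26, against 0.05 over all genes), and 6 and none in TOM- DC2 (0.21). Cct6a was at a mean of 285 TPM in young TOM+ cDC2 and 177 in adults (log2FC 0.55 ± 0.07, edgeR padj 9.5e-05), and Pfdn1 at 28.4 and 16.6 (0.67 ± 0.18, padj 0.0091). Of 19 mitochondrial import and folding genes, 6 were higher and 2 lower in TOM+ cDC2, and 5 and 2 in TOM- DC2. They included Tomm40, the channel of the outer membrane, at 75.2 TPM in young TOM+ cDC2 and 39.7 in adults (log2FC 0.80 ± 0.10, edgeR padj 5.2e-05), and Timm50 (0.69 ± 0.09, padj 5.8e-05), while the protease Htra2 was lower (-0.74 ± 0.10, padj 0.00011).

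Of 29 ER folding and unfolded protein response genes tested, 13 were higher and 2 lower in young TOM+ cDC2 (median log2FC 0.26), and 9 and 2 in TOM- DC2 (0.16). The shares of all genes were 21.0% higher and 19.5% lower in TOM+ cDC2, and 19.4% and 16.9% in TOM- DC2. P4hb, a disulfide isomerase, was at 412 TPM in young TOM+ cDC2 and 217 in adults (log2FC 0.80 ± 0.08, edgeR padj 1.2e-05). Herpud1, a stress-induced gene of ER-associated degradation, was lower, at 631 against 1411 TPM (-1.28 ± 0.13, padj 1.1e-05). Of the 30 HSF1 targets and cytosolic cochaperones outside the family, 9 were higher and 6 lower in TOM+ cDC2, and 5 and 4 in TOM- DC2. The lower calls in TOM+ cDC2 and both counts in TOM- DC2 were close to or under the shares of all genes. Bag2 and Bag4, which release clients from HSP70, were higher (log2FC 1.20 ± 0.21, edgeR padj 0.00067, and 0.70 ± 0.12, padj 0.00058), and the myosin chaperone gene Unc45a was lower (-0.78 ± 0.15, padj 0.0013).

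Cell division and immediate early transcripts also differed with age. Beside them stood 21.0% and 19.4% of all genes higher, and 19.5% and 16.9% lower, in young TOM+ cDC2 and TOM- DC2. Of 20 cell cycle genes 19 were higher in young TOM+ cDC2 and 19 in TOM- DC2, with summed levels of 2510 to 2901 TPM in young and 1103 to 1349 in adult libraries. Ccnb1, the mitotic cyclin, was at 69.0 TPM in young TOM+ cDC2 and 18.8 in adults (log2FC 1.72 ± 0.21, edgeR padj 4.7e-05). Of 27 immediate early genes, 16 were lower and 3 higher in young TOM+ cDC2, and 15 and 2 in TOM- DC2, among them Nr4a3 (log2FC -2.08 ± 0.19, edgeR padj 5.8e-06) and Egr3 (-1.65 ± 0.33, padj 0.0016). The part of either list in the members' differences was not tested.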

How the data were processed

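The mRNA libraries were made with SMARTseq v4 from sorted splenic cells and sequenced single-end. The submitters' processing notes name STAR, RSEM and the mm10 build, and their versions are not given in the sources used here. The authors deposited STAR counts per gene for each library, of which the unstranded column was used, so that overlapping and antisense genes cannot be told apart. They also deposited RSEM tables with expected counts and TPM, and the FPKM values in them were not used. Reads not on genes, 26.1% to 31.6% of those listed, stayed out of library sizes and tests.

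Genes averaging 1 count or more were tested with edgeR 4.0.16 in R 4.3.3 (TMM normalization, quasi-likelihood test, Benjamini-Hochberg adjustment over all genes), with the 3 groups fitted in one model. A second model added the library number. DESeq2 1.42.0, limma 3.58.1 on log2(TPM + 1) and log2(TPM + 0.1), expected counts rounded to whole numbers, other filters, the number as a block and leaving out each library were alternatives. The fit was tested on simulated data. Log2 CPM used a prior count of 2.

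Members and lists were chosen with earlier results of these data known. Named were core members whatever their values, and the 6 largest rises and falls per comparison, the 6 widest spreads and the 6 smallest p for the number at an average count of at least 50, and up to 3 genes per other list. Deviations from group means over 10112 genes correlated between young TOM+ and TOM- libraries of the same number at 0.746 (81), 0.501 (91) and 0.517 (92), so that the number pairs the young libraries. For young and adult libraries the values were 0.157 and -0.003 (TOM+ with 91 and 92) and 0.144 and 0.131 (TOM-). Promoter windows came from RefSeq (GRCm38.p6), and protein sequences were not used here.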

Additional observations from a re-analysis of the deposited data

How the results depend on the processing

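Between the young groups, 0 members passed, and 1 passed with DESeq2, 1 without a filter, 2 with the number as a replicate block and 0 to 1 when 1 library was left out (Dnajb2, without young TOM- library 81). Among settings chosen after seeing the data, 1 passed without both young libraries 81 and 6 with the block in the young libraries alone. In young TOM+ cDC2 against adults, leaving out 1 library gave 6 to 11 members higher in young mice, 11 to 14 lower and 5 to 8 beyond a log2FC of 1, and limma on TPM gave 7 lower at either pseudocount. In young TOM- DC2 against adults, limma on TPM gave 12 higher, 6 lower and 2 beyond 1 at either pseudocount, the block gave 11, 19 and 8, and leaving out 1 library gave 4 to 6, 9 to 13 and 3 to 7. Without both young libraries 81 and adult library 91, there were 7 higher and 3 beyond 1. The block changed no other count of members by over 1.5 times. It called 6.57% of all genes between the young groups, 47.9% in young TOM+ cDC2 against adults and 45.3% in TOM- DC2. Limma on log2(TPM + 1) called 1973 of all genes lower in young TOM+ cDC2, against 2822 in the main test. In TOM- DC2 it called 1597 lower, against 2438. For settings without a library or a filter the share of all genes is not given. Shifts of the members and of all genes cannot be told apart there.

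The log2FC of Dnajb1 ranged from -0.52 to 0.38 (young TOM+ cDC2 against adults) and from -0.58 to 0.32 (young TOM- DC2 against adults) when 1 library was left out. Among values that passed in the main test or the alternative, the sign turned for Dnajb1 without adult library 91 (0.38 and 0.32) and without that library and both young libraries 81 (0.37 in TOM+ cDC2), for Dnajb6 in TOM- DC2 on the TPM scale (0.01 at either pseudocount), and for Hspa1a (-0.89) and Hspa1b (-0.87) in TOM- DC2 with the block. The cause was not tested. Over all gene values and settings, 2246 kept sign and side of the threshold, 135 changed sign without passing in either setting, 69 passed newly, 41 were lost and 7 turned. Among the 135 were Hspa1a (-0.51) and Hspa1b (-0.57) in TOM+ cDC2 with the block, and Dnajb1 on the TPM scale (0.05 in TOM+ cDC2, 0.02 in TOM- DC2). Uniquely placed reads limit what can be said of members with near-identical copies.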
